A study of Rattus norvegicus with 21 samples.

Results

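Islets listed in the deposited sample sheet as control culture for 24 h were set against control islets kept for 3 h, in RNA-seq libraries of pancreatic islets from Sprague Dawley rats. The comparison uses 6 of the 21 libraries of the series: condition 3 of preparations 1, 2 and 3, and condition 1 of the same 3 preparations. The libraries were taken by the preparation and condition numbers in the column names of the count table. Each preparation was an isolation in which islets of 8 rats were pooled and divided over the conditions, so the groups have 3 libraries each, paired by preparation, and no value of a single animal exists.

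The name of condition 3 is in conflict between the sources. The deposited sample sheet calls it control at 24 h (11 mM glucose, no palmitate), while the sample records call it glucolipotoxic (GLT) culture for 3 h (27 mM glucose with 300 µM palmitate). Condition 1 is control at 3 h (11 mM glucose, no palmitate) in both. The sheet and the records exchange the names of conditions 2 and 3, and both give condition 4 as GLT at 24 h, conditions 6 and 5 as GLT with compound D at 300 nM for 24 h and 3 h, and conditions 8 and 7 as GLT with compound E at 300 nM for 24 h and 3 h. The condition numbers are used here, and every value of condition 3 against condition 1 is the same under either name.

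Islets are clusters of endocrine cells that secrete insulin (beta cells), glucagon (alpha cells) and somatostatin (delta cells) into a dense bed of fenestrated capillaries. Isolated islets have no blood flow. They carry endothelial cells, red cells trapped in the capillaries, macrophages and stromal cells into culture, and loss of their endothelium in culture is known from earlier work on rodent and human islets. In bulk RNA, fewer cells of a type and less RNA per cell cannot be told apart.

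Levels are in CPM: reads in a gene per M reads in all genes (M stands for mega), scaled by TMM, a factor per library that evens out the composition of the RNA. Depth was 22.8 to 40.2 M counts in genes in condition 3 and 25.7 to 32.2 M in condition 1, so that 3 counts, used as the floor of detection, stand at 0.088 to 0.117 CPM. The genes Ins1 and Ins2 together took 12.8% to 45.9% of the counts in condition 3 and 12.7% to 33.4% in condition 1. Differences are fitted log2 fold changes of condition 3 over condition 1 with a standard error (SE), from edgeR's quasi-likelihood test on all 21 libraries with a term per preparation. The threshold for passing was an adjusted p below 0.05, by the method of Benjamini and Hochberg (BH) over the 12576 genes tested. The p-values rest on the spread left after the terms for condition and preparation, pooled over all 21 libraries. Nothing says that libraries of a preparation came from separate dishes, so they reach no further than these 3 preparations.

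Several of the 6 libraries stood apart from the others of their group. Condition 3 of preparation 2 had 23.4% of its reads at more than 1 place in the genome, where the other 20 libraries had 4.92% to 8.51%, and 0.0333% of its gene counts in Rn45s, the ribosomal RNA precursor gene, where condition 1 had 1.80% to 7.37%. In that library 189 of 8474 genes lay more than 10 times below their level in both other libraries of condition 3, among them the collagen gene Col1a2 (0.33 CPM, against 244 and 240.2 CPM) and the glycolysis gene Tpi1 (0 CPM, against 816 and 595 CPM). None of these 189 genes passed, but so wide a spread within a group makes passing unlikely, so this does not measure the part of the library. Condition 1 of preparation 3 had 79 genes at more than 10 times their level in both other libraries of condition 1. Its summed level of 27 interferon response genes was 5904 CPM against 336 and 338 CPM. None of the 79 genes passed either, with the same limit. Condition 1 of preparation 1 had 7.37% of its gene counts in Rn45s and 2.03% ambiguous reads. The other libraries of condition 1 had 1.80% and 3.11% in Rn45s, and 0.562% and 0.973% ambiguous reads. Condition 3 of preparation 1 had 1.37% and 0.66%, so the libraries of that pair also differed in these measures.

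The levels of genes in the other conditions bear on the name of condition 3. Plvap, which encodes the protein of the diaphragms of fenestrated endothelium, was at 10.1, 17.2 and 6.25 CPM in condition 3. Conditions 4, 6 and 8, which are 24 h in both sources, held 2.68 to 20.9 CPM, and conditions 1, 5 and 7, which are 3 h in both, held 31.3 to 70.1 CPM. Condition 3 thus lay within the range of the 24 h libraries and below every 3 h library. A1bg, a plasma glycoprotein gene, was at 0.865 to 1.41 CPM in condition 3, against 0.782 to 3.41 CPM in conditions 4, 6 and 8 and 5.56 to 9.92 CPM in conditions 1, 5 and 7.

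Palmitate and high glucose have their own marker genes. Acot2, a mitochondrial acyl-CoA thioesterase gene that fatty acids induce through PPAR alpha, was at 8.51 to 12.3 CPM in condition 3, against 40.1 to 54.2 CPM in condition 4 and 7.37 to 12.03 CPM in condition 1. Cpt1a, the carnitine palmitoyltransferase of the outer mitochondrial membrane, was at 29.5 to 36.3 CPM in condition 3, against 58.5 to 73.9 CPM in condition 4 and 24.5 to 29.6 CPM in condition 1. For both genes condition 3 stood near condition 1 and apart from condition 4. Acot2 was as low in conditions 6 and 5 (10.3 to 14.8 CPM), which had palmitate with compound D, whereas Cpt1a was at 44.6 to 73.9 CPM in all of conditions 4 to 8. Txnip, a glucose-induced gene, did not pass between condition 3 (36.1, 74.3 and 41.1 CPM) and condition 1 (33.9, 50.3 and 34.4 CPM), with a log2 fold change of 0.32 (SE 0.33, edgeR adjusted p = 0.786). Condition 4 held 76.5, 90.9 and 46.9 CPM of Txnip and condition 8 held 44.9 and 56.6 CPM, which overlap condition 3. Within each preparation condition 4 was above condition 3. Conditions 5 and 6, GLT with compound D, were higher, at 265 to 1117 CPM and 194 to 468 CPM. The range of Txnip thus does not part condition 3 from conditions 4 and 8. Cry1, a clock gene, was at 13.8 to 16.8 CPM in condition 3, between the 18.96 to 29.4 CPM of conditions 4, 6 and 8 and the 5.18 to 8.70 CPM of conditions 1, 5 and 7. The levels of Plvap, A1bg and Cpt1a go against the name of condition 3 in the sample records and not against that in the sheet.

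**Figure D1:**
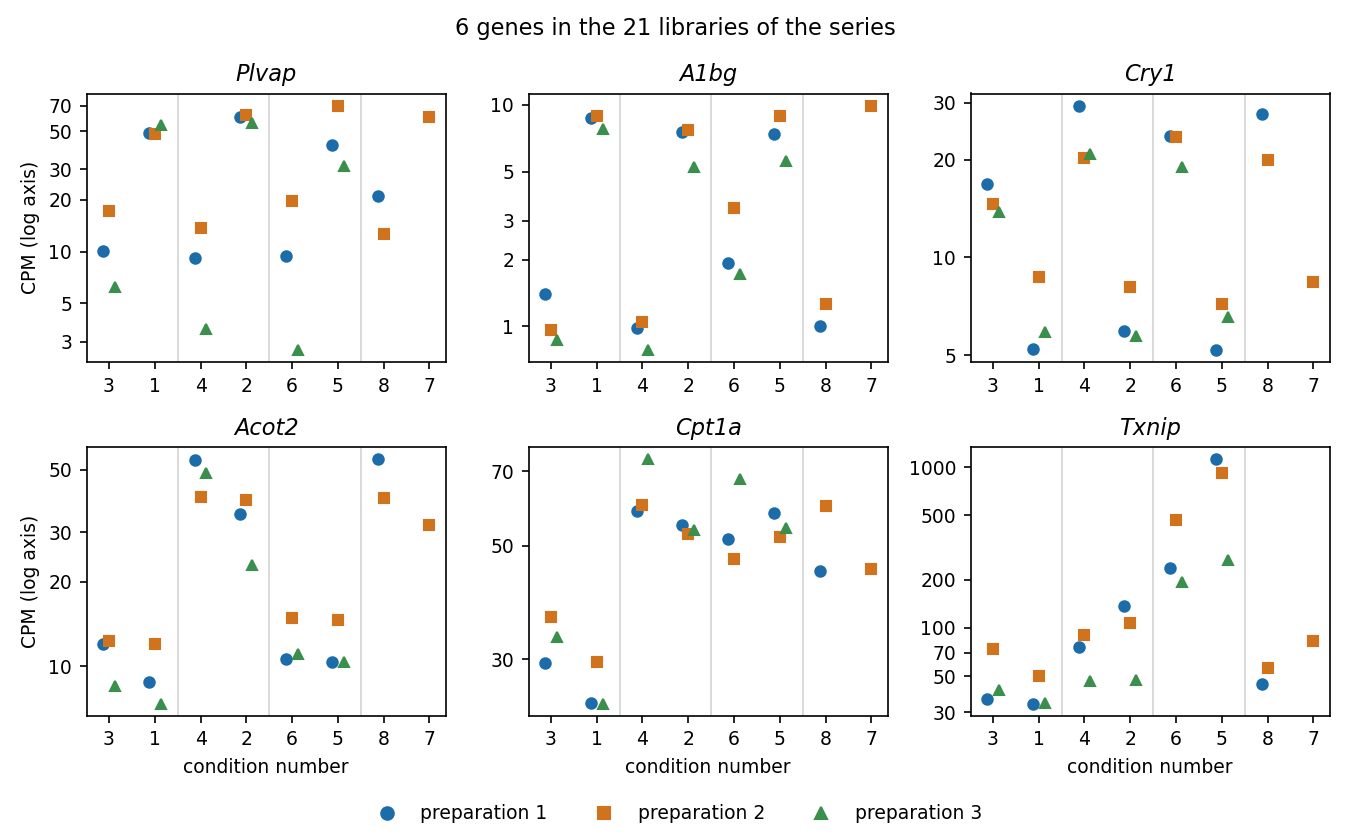
CPM (log axis) of 6 genes in the 21 libraries, by condition number, with a marker for each preparation; vertical lines part the pairs of 24 h (left) and 3 h (right) conditions by the sheet's names. In Plvap condition 3 lies within the range of conditions 4, 6 and 8, as it does in A1bg; in Cry1 it lies between them and conditions 1, 5 and 7; in Acot2 and Cpt1a it lies near condition 1.

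In condition 3 against condition 1, 87 of 12576 genes passed (0.692%), 32 of them higher (0.254%) and 55 lower (0.437%). Of these, 18 rose and 46 fell by at least 2-fold. The falls included genes of endothelium, red cells and cell division, and the rises included genes of collagen-forming stromal cells. All 87 had the same direction in each of the 3 preparations. In 83 of them the 3 libraries of one group did not overlap those of the other, which 12.8% of all tested genes share. The exceptions were Cp, Vsnl1, Cdc42se2 and Mmd. The same fit gave 1627 genes at an unadjusted p below 0.05, and DESeq2 called 389 genes (3.09%), 169 higher (1.34%) and 220 lower (1.75%), which include the 87.

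The number of calls leaned on the rest of the series and on single libraries. Without condition 3 of preparation 2, 22 of 12555 genes passed (0.175%), 6 of them higher (0.0478%) and 16 lower (0.127%); 19 of the 22 are among the 87. Without condition 1 of preparation 3, 16 passed (0.128%), 7 of them higher (0.056%) and 9 lower (0.0719%). Of the genes named below as passed, those that also passed without condition 3 of preparation 2 were Dlk1, Col1a1, Cp, Reep6, Lbp, Mapt, Dmp1, Col13a1, A1bg, Ros1, Abcb4, Eng, Cenpk and Kcnn2. The others named missed the threshold in that fit, with edgeR adjusted p from 0.0506 (Hba-a2) to 0.17 (Asf1b). Those that passed without condition 1 of preparation 3 were Dlk1, Lum, Col3a1, Itih1, Lbp, Mapt, Hba-a2, Dmp1, A1bg, Ros1, Abcb4, Ndc80 and Cenpk, and the others had edgeR adjusted p from 0.0505 to 0.156 (Esam). All 87 kept their direction in both fits. A fit without the preparation term gave 17 genes. The 6 libraries alone gave 0 with edgeR, with 892 at an unadjusted p below 0.05. With library size as the only scaling, which moves the median of all genes to -0.14, 32 passed, of which 3 (9.38%) were higher, where the TMM fit had 36.8% higher.

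Most endothelial markers had lower values in condition 3. Of 23 tested markers 0 rose and 3 fell (Plvap, Eng and Esam), against 0.437% of all genes. Their median log2 fold change was -0.97 where that of all genes was -0.03, and 12 of the 23 were lower without overlap between the groups, against 6.74% of all genes. Plvap (gene ID 56765) averaged 11.2 ± 5.55 CPM in condition 3 and 50.4 ± 3.17 CPM in condition 1 (SD, n = 3 each), a log2 fold change of -2.37 (SE 0.45, edgeR adjusted p = 0.0287). Each preparation showed the fall, the largest library of condition 3 being well under the smallest of condition 1. The adjusted p was 0.0704 without condition 3 of preparation 2 and 0.0912 without condition 1 of preparation 3.

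Eng (gene ID 497010) encodes endoglin, a TGF-beta co-receptor of endothelial cells. It was at 18.3, 20.4 and 21.6 CPM in condition 3, against 43.7, 44.7 and 72.1 CPM in condition 1, a log2 fold change of -1.40 (SE 0.23, edgeR adjusted p = 0.015). Esam, an endothelial cell adhesion molecule gene, was at 6.19 to 6.96 CPM in condition 3, against 11.1 to 20.7 CPM in condition 1. Its log2 fold change was -1.15 (SE 0.25, edgeR adjusted p = 0.0461). The groups of all 3 genes were apart.

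Of the 23, 21 had a value below 0. The angiopoietin receptor gene Tek (-1.39, SE 0.32), the VEGF receptor genes Kdr (-1.33, SE 0.36) and Flt1 (-1.32, SE 0.54) and the guidance receptor gene Robo4 (-2.44, SE 0.83) were lower without overlap. The adhesion genes Pecam1 (-0.60, SE 0.44) and Cdh5 (-0.53, SE 0.40) overlapped between the groups. The summed level of the list was 149 to 214 CPM in condition 3 and 353 to 412 CPM in condition 1. Without condition 3 of preparation 2 the median was -0.98 and Eng alone passed. Without condition 1 of preparation 3 it was -0.64 and 0 passed.

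**Figure D2:**
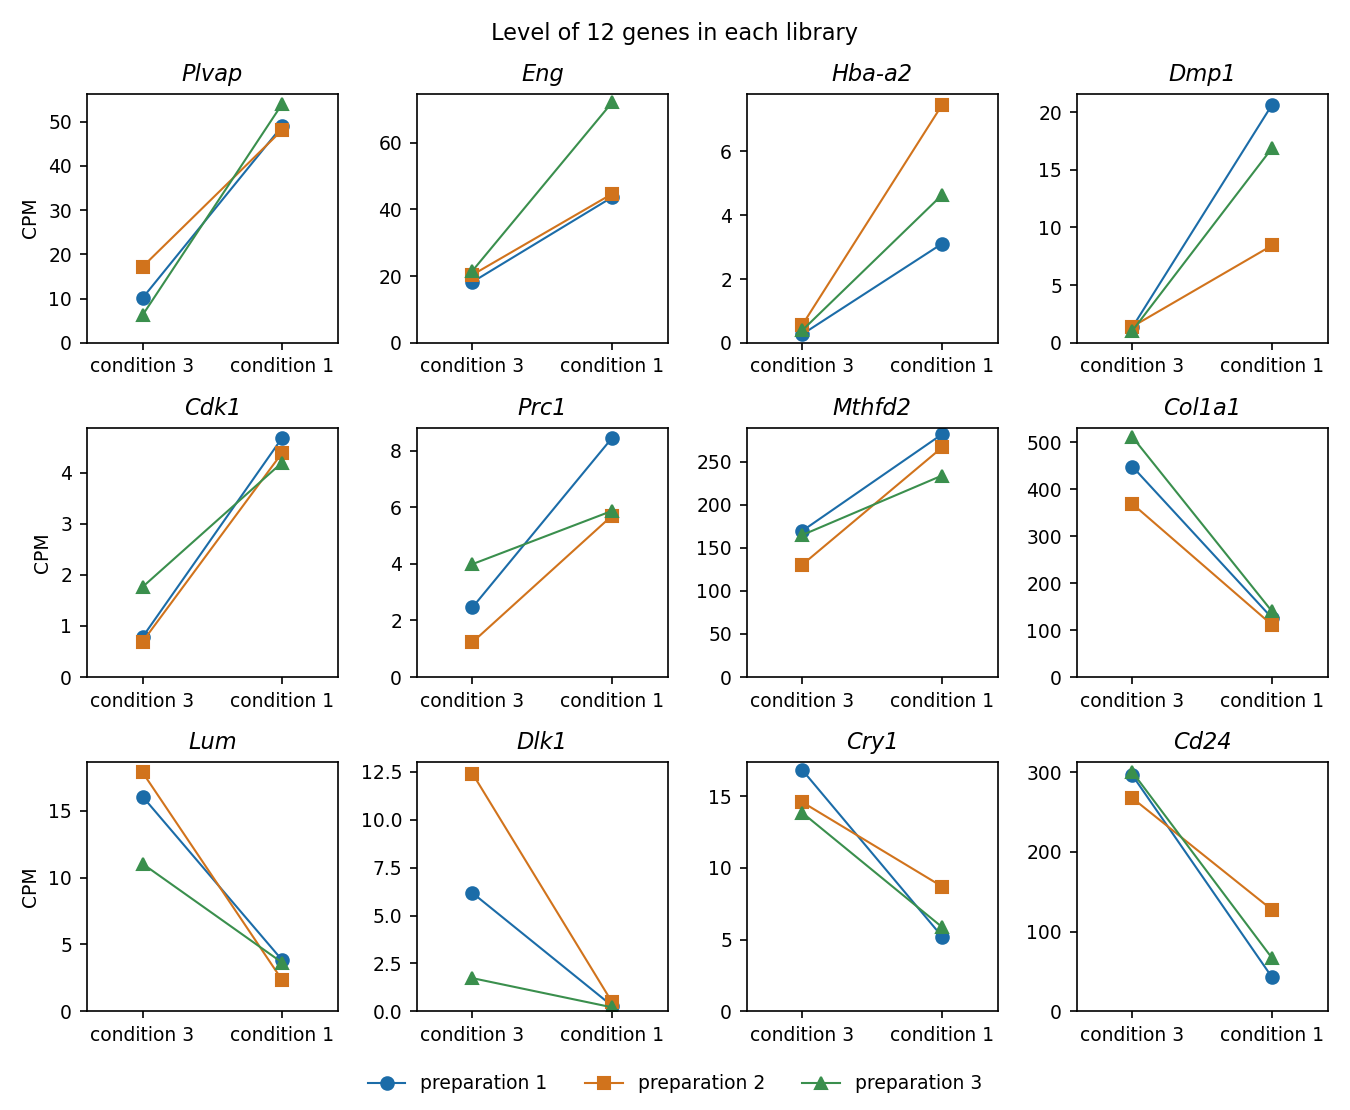
CPM (linear axes from 0) of 12 genes in the 3 libraries of condition 3 (left) and the 3 of condition 1 (right), with a line for each preparation. All lines run the same way within a gene: Plvap, Eng, Hba-a2, Dmp1, Cdk1, Prc1 and Mthfd2 are lower in condition 3, and Col1a1, Lum, Dlk1, Cry1 and Cd24 are higher.

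Globin RNA was low in both groups and lower in condition 3. Of 7 tested markers 3 fell, all of them globin genes, against 0.437% of all genes. Of the 7, 4 had values below 0, all globin genes, and 3 had values above 0. Hba-a2 (gene ID 25632), an alpha globin gene, was at 0.274, 0.571 and 0.399 CPM in condition 3, against 3.11, 7.46 and 4.64 CPM in condition 1. Its log2 fold change was -3.58 (SE 0.53, edgeR adjusted p = 0.0105). Hba2, a near-identical alpha globin gene with which it may share reads, had -2.61 (SE 0.44, edgeR adjusted p = 0.0173). The beta globin gene Hbb was at 0.156, 0 and 0.133 CPM in condition 3, against 3.30, 0.621 and 2.58 CPM in condition 1, so its fitted fold rests on counts near the floor. The erythroid genes Ahsp (0.33, SE 0.52), Hemgn (0.39, SE 0.69) and Slc4a1 (1.60, SE 0.85) had values above 0, were under 1 CPM in all 6 libraries and did not pass. The list summed to 1.63 to 2.19 CPM in condition 3 and 9.74 to 14.2 CPM in condition 1, and without condition 3 of preparation 2 the median of the 7 genes was -1.995 with 0 that passed, and without condition 1 of preparation 3 it was -2.64 with 1 that fell.

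Most stromal markers had higher values in condition 3. Pancreatic stellate cells and fibroblasts make fibrillar collagens and the small proteoglycans that bind them. Of 12 tested markers 4 rose (Lum, Col1a1, Col3a1 and Postn), against 0.254% of all genes, and 0 fell, with a median log2 fold change of 0.90. Col1a1 (gene ID 29393), a chain of type I collagen, was at 448, 369 and 511 CPM in condition 3, against 126, 111 and 140 CPM in condition 1. Its log2 fold change was 1.83 (SE 0.34, edgeR adjusted p = 0.0247), and 2.07 (adjusted p = 0.024) without condition 3 of preparation 2.

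Col3a1, the type III collagen gene, was at 709, 609 and 643 CPM in condition 3, against 270, 144 and 256 CPM in condition 1, a log2 fold change of 1.54 (SE 0.30, edgeR adjusted p = 0.0311). Lum, which encodes the proteoglycan lumican, rose by 2.13 on the log2 scale (SE 0.37, edgeR adjusted p = 0.0202). Postn, which encodes the matrix protein periostin, rose by 0.88 (SE 0.17, edgeR adjusted p = 0.034). Surface marker genes of these cells had smaller values: Pdgfra had 0.74 (SE 0.44), Pdgfrb -0.27 (SE 0.13) and Thy1 0.14 (SE 0.28), and none passed. The list summed to 1268 to 1749 CPM in condition 3 and 484 to 740.4 CPM in condition 1, with Col1a2 near 0 in condition 3 of preparation 2. Without that library 1 of the 12 passed and the median was 0.97, and without condition 1 of preparation 3, 2 passed and it was 1.23.

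The wider list of 43 matrix genes held the same 4 rises and 1 fall, against 0.254% and 0.437% of all genes. The fall was Col13a1, a transmembrane collagen gene, at 0.547, 1.23 and 0.233 CPM in condition 3, against 5.46, 4.09 and 7.98 CPM in condition 1 (log2 fold change -3.21, SE 0.56, edgeR adjusted p = 0.0202; -3.88 without condition 3 of preparation 2). Of the 43 genes 13 were higher without overlap, against 6.08% of all genes, among them Sparc (0.79, SE 0.23), Bgn (0.77, SE 0.20) and Col5a2 (0.73, SE 0.18), which did not pass. Another 4 were lower without overlap, against 6.74% of all genes, and 19 of the 43 had values below 0. Cilp, a cartilage matrix gene outside the list, was at 14.8, 15.2 and 13.7 CPM in condition 3, against 3.67, 1.57 and 2.20 CPM in condition 1 (2.61, SE 0.51, edgeR adjusted p = 0.0316). Col7a1, the anchoring fibril collagen gene, and Gja1, which encodes the gap junction protein connexin 43, rose by 1.47 (SE 0.29) and 1.54 (SE 0.33), with edgeR adjusted p of 0.0333 and 0.0479.

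**Figure D3:**
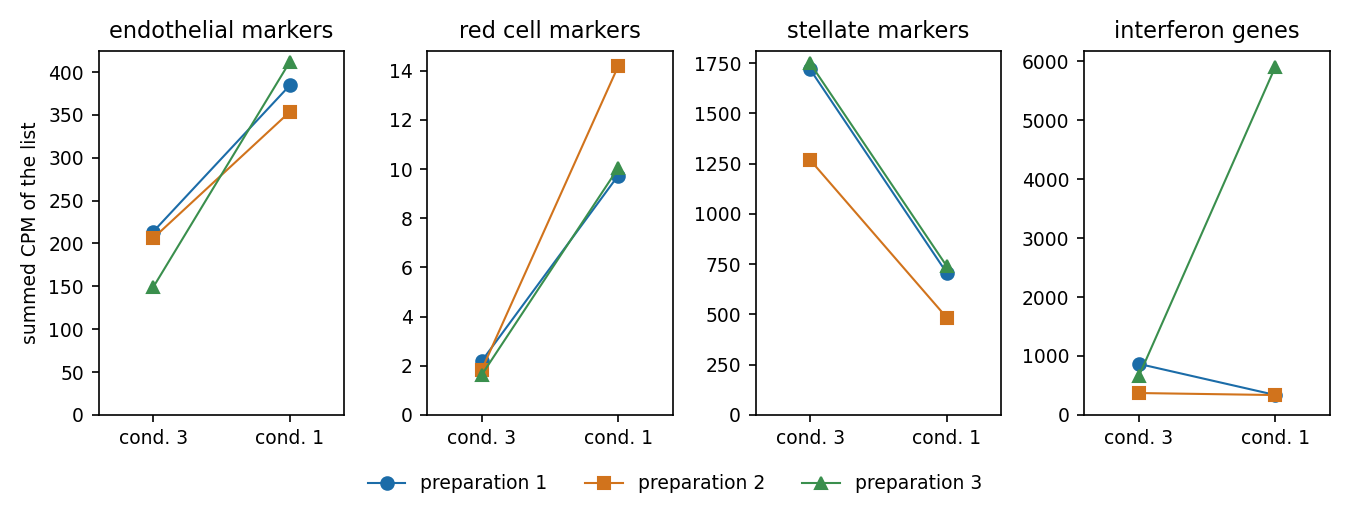
Summed CPM (linear axes from 0) of the markers of endothelium, red cells and stellate cells and of 27 interferon response genes in each library, condition 3 left and condition 1 right, with a line for each preparation. Endothelial and red cell sums are lower and stellate sums higher in condition 3 in every preparation, while the interferon sum of 5904 CPM stands alone in condition 1 of preparation 3.

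Most genes of cell division had lower values in condition 3. Of 57 tested cell cycle genes 0 rose and 8 fell, against 0.437% of all genes that fell. Of the 57, 54 had a value below 0, the median log2 fold change was -0.94, and 26 were lower without overlap, against 6.74% of all genes. Cdk1 (gene ID 54237), the kinase that starts mitosis, was at 0.782, 0.691 and 1.76 CPM in condition 3, against 4.68, 4.39 and 4.20 CPM in condition 1. Its log2 fold change was -2.05 (SE 0.40, edgeR adjusted p = 0.0311). The groups were apart in every preparation, with the smallest gap in preparation 3.

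The others that fell have roles in the spindle or its control. Ndc80 (-1.96, SE 0.35) and Nuf2 (-1.62, SE 0.31) encode parts of the kinetochore complex that holds microtubules. Prc1 (-1.44, SE 0.30) bundles the midzone of the spindle, and Kif11 (-1.49, SE 0.31) is the motor that parts its poles. Ube2c (-2.08, SE 0.44) feeds ubiquitin to the anaphase-promoting complex. Pbk (-2.14, SE 0.34) and Melk (-1.54, SE 0.32) are mitotic kinases. Their edgeR adjusted p ran from 0.0144 to 0.0432.

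Mki67, the proliferation antigen gene, was at 3.79, 1.20 and 5.09 CPM in condition 3, against 9.23, 7.35 and 6.40 CPM in condition 1, and did not pass (-1.29, SE 0.43, edgeR adjusted p = 0.199). Genes of DNA replication lay nearer to 0: Mcm2 had -0.22 (SE 0.17), Mcm7 -0.05 (SE 0.16) and Ccne2 0.08 (SE 0.21), none past the test. The median over the 57 genes of the log2 difference within a preparation was -0.86, -1.58 and -0.41 in preparations 1, 2 and 3. Without condition 3 of preparation 2 the median of the fitted values was -0.70 and 0 genes passed, with Cdk1 at -1.75 (adjusted p = 0.119). Without condition 1 of preparation 3 it was -1.04 and 1 gene passed, Ndc80. Endothelial and red cell markers were lower in the same libraries, and which cells held the cell cycle RNA was not tested.

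Promoters of the cell cycle genes were searched for a pair of motifs. TTTGAA is the core of the cell cycle homology region, and CCAAT is the box bound by NF-Y. In mammals both are known in promoters of genes that are used late in the cell cycle. Each was searched on both strands from 250 bases before to 50 after the start of the gene, in promoters from RefSeq (rat build GRCr8). TTTGAA was in 24 of the 45 cell cycle promoters found for the 57 genes (53.3%), in 11.5% of the 10175 promoters of tested genes and in 18.1% of all 27457. CCAAT was in 32 of the 45 (71.1%), in 37.2% of those of tested genes and in 37.7% of all. Of the 8 genes that fell, 6 had a promoter in the table, and 4 of these held TTTGAA. They are shown 5′ to 3′ on the strand of the gene as examples of TTTGAA among the genes that fell. The motif is common over the whole cell cycle list. Whether it is more frequent among those that fell was not tested, as 6 promoters are too few to decide it. Capitals mark TTTGAA or CCAAT, or their reverse complements TTCAAA and ATTGG, and no match overlaps another.
Cdk1, chr20:19265043-19265342, plus strand: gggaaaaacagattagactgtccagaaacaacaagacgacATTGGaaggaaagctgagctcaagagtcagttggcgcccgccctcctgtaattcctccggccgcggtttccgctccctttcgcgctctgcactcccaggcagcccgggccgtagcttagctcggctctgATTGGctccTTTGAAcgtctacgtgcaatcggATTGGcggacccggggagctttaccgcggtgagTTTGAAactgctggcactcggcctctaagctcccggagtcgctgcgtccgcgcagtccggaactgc
Prc1, chr1:143659231-143659530, plus strand: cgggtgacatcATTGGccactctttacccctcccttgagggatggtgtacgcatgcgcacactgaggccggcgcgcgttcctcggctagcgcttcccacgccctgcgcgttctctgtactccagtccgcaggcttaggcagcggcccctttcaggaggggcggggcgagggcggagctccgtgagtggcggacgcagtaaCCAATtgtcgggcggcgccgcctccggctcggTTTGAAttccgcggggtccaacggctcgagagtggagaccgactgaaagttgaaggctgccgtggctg
Nuf2, chr13:84255549-84255848, minus strand: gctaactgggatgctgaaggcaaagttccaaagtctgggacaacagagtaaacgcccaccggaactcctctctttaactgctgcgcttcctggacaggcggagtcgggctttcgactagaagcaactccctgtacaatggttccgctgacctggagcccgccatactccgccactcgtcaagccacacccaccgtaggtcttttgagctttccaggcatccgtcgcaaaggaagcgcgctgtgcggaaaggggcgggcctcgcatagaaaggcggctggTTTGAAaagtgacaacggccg
Ndc80, chr9:118887480-118887779, minus strand: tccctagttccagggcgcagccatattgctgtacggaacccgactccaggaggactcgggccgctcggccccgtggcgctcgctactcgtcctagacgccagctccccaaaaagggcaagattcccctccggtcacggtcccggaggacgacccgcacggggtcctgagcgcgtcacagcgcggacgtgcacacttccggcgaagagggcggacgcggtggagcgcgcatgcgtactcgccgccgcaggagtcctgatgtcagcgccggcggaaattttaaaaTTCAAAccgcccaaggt

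Cdk1 holds both motifs more than once and Prc1 holds both. Nuf2 and Ndc80 hold TTTGAA alone, 29 and 33 bases from the start. Of the other promoters, that of Kif11 holds CCAAT and that of Melk holds neither.

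Genes outside the list add to the cell division group. Asf1b, a histone chaperone gene of replicating cells, Cenpk and Cenpw, of the centromere, and Tacc3, of the spindle, fell by 2.40 (SE 0.50), 1.83 (SE 0.28), 2.02 (SE 0.42) and 1.33 (SE 0.27) on the log2 scale, with edgeR adjusted p of 0.041, 0.0112, 0.0392 and 0.0357. They were picked out after their values were seen. Cenpk also passed without condition 3 of preparation 2 (adjusted p = 0.045).

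**Figure D4:**
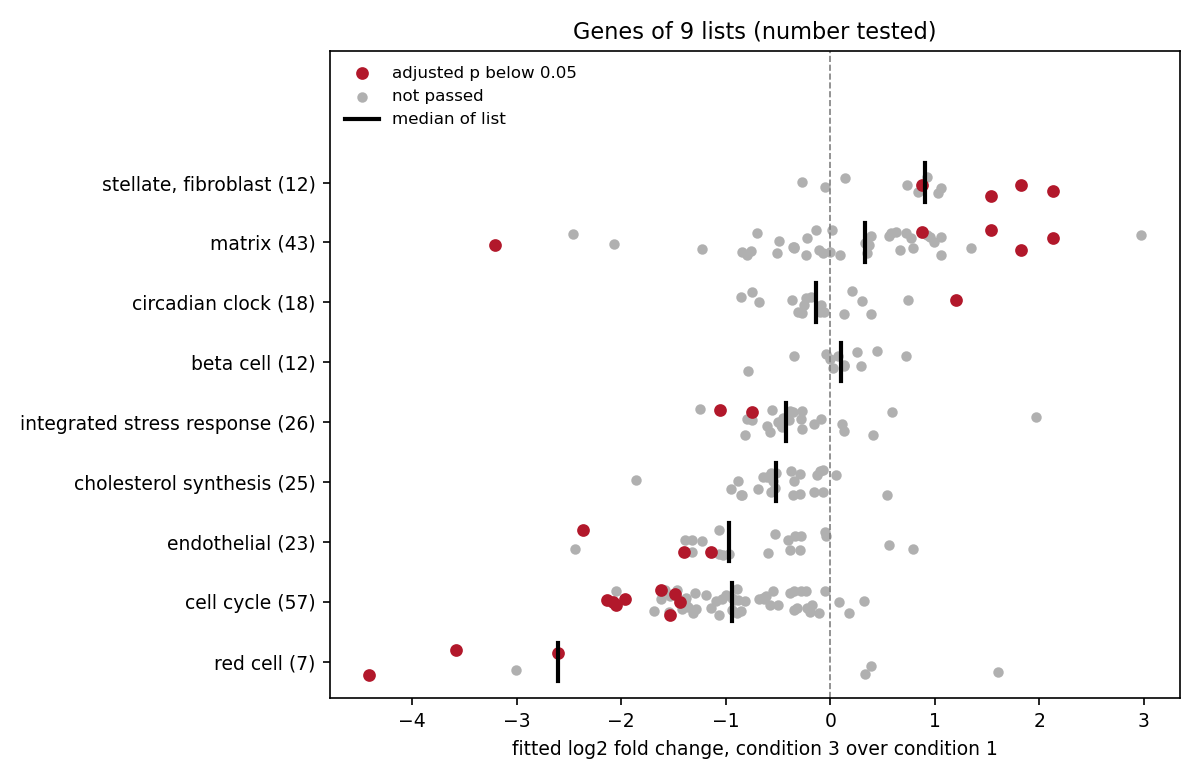
Fitted log2 fold change of condition 3 over condition 1 for each tested gene of 9 lists, with genes that passed in red, the others in grey and the median of each list as a black bar. The medians run from -2.61 in the red cell list through -0.97 in the endothelial and -0.94 in the cell cycle list to 0.90 in the stellate list.

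In the integrated stress response the factor ATF4 raises genes of amino acid supply. Of 26 tested genes of this response 2 fell, against 0.437% of all genes, and 0 rose. The median was -0.42, and 11 were lower without overlap, against 6.74% of all genes, with 2 higher without overlap. Mthfd2 (gene ID 680308), a mitochondrial folate enzyme gene, was at 170, 131 and 165 CPM in condition 3, against 282, 267 and 234 CPM in condition 1 (-0.75, SE 0.14, edgeR adjusted p = 0.0251). Chac1, which encodes a glutathione-degrading enzyme, was at 69.2, 85.6 and 53.9 CPM in condition 3, against 151, 204 and 96.3 CPM in condition 1 (-1.06, SE 0.22, edgeR adjusted p = 0.0392). Atf4 itself had -0.45 (SE 0.15) and Trib3, a pseudokinase gene it induces, -1.24 (SE 0.28, edgeR adjusted p = 0.0539), neither past the test. Stc2, the stanniocalcin gene, went the other way (1.97, SE 0.59) and did not pass. Cars, the cysteinyl-tRNA synthetase gene, fell by 0.62 (SE 0.13, edgeR adjusted p = 0.0357). Without condition 3 of preparation 2 the median was -0.38 and 0 passed, and without condition 1 of preparation 3 it was -0.39 and 0 passed.

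In the circadian clock, 1 of 18 tested genes rose, against 0.254% of all genes, and 0 fell, with a median of -0.14. Without overlap between the groups 1 was higher and 3 were lower, against 6.08% and 6.74% of all genes. Cry1, the gene that rose, encodes a repressor of the CLOCK and BMAL1 activators. It was at 16.8, 14.6 and 13.8 CPM in condition 3, against 5.21, 8.70 and 5.87 CPM in condition 1, a log2 fold change of 1.20 (SE 0.22, edgeR adjusted p = 0.0251). It did not pass without condition 3 of preparation 2 (adjusted p = 0.0618) or without condition 1 of preparation 3 (adjusted p = 0.0802), so that 0 clock genes rose in either fit. Dbp, an output gene of the clock, was at 15.01, 19.7 and 17.5 CPM in condition 3, against 28.6, 30.9 and 34.7 CPM in condition 1 (-0.85, SE 0.26, edgeR adjusted p = 0.153). Per2 had 0.74 (SE 0.27) and Arntl, which encodes BMAL1, 0.39 (SE 0.20). Hour of the day is not among the labels used here, so culture time and clock phase cannot be told apart.

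Dlk1 had the largest rise. It is an imprinted gene for a transmembrane protein of the Notch ligand family, known in rodent beta cells and stromal precursors. It was at 6.18, 12.4 and 1.73 CPM in condition 3, against 0.283, 0.475 and 0.205 CPM in condition 1, a log2 fold change of 4.17 (SE 0.59, edgeR adjusted p = 0.00678), and 3.76 (adjusted p = 0.024) without condition 3 of preparation 2. The libraries of condition 3 spread by more than those of condition 1, and all lay above them. Of the 15 other imprinted genes tested 0 passed, H19 among them (at most 0.51 CPM in the 6 libraries).

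Other rises were of mixed function. Cd24, a surface glycoprotein gene, was at 296, 268 and 300.2 CPM in condition 3, against 42.7, 127 and 66.8 CPM in condition 1 (1.94, SE 0.37, edgeR adjusted p = 0.029). Cp, which encodes the copper oxidase ceruloplasmin, rose by 1.45 (SE 0.23), Reep6, an endoplasmic reticulum protein gene, by 1.39 (SE 0.22), Vsnl1, a neuronal calcium sensor gene, by 1.28 (SE 0.23), and Oma1, a mitochondrial protease gene, by 1.16 (SE 0.23), with edgeR adjusted p of 0.015, 0.015, 0.0202 and 0.0352. Ppic, a prolyl isomerase gene, and Itih1, an inhibitor chain of plasma, rose by 0.96 (SE 0.19) and 0.94 (SE 0.17), with edgeR adjusted p of 0.0352 and 0.0234. Lbp, which encodes the lipopolysaccharide-binding protein, and Mapt, which encodes tau, were picked out after their values were seen. Lbp was at 2.34 to 3.33 CPM in condition 3 against 0.283 to 0.763 CPM in condition 1 (2.52, SE 0.45, edgeR adjusted p = 0.0203), and Mapt at 46.8 to 59.2 CPM against 25.2 to 32.4 CPM (0.85, SE 0.11, edgeR adjusted p = 0.00376). Both also passed without condition 3 of preparation 2.

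The falls with the smallest adjusted p were A1bg and Dmp1. A1bg (gene ID 140656) averaged 1.08 ± 0.29 CPM in condition 3 and 8.47 ± 0.628 CPM in condition 1 (SD, n = 3 each), a log2 fold change of -2.99 (SE 0.23, edgeR adjusted p = 1.75e-05). It passed in 17 of 18 alternative settings, more than any other gene. Dmp1, a matrix phosphoprotein gene best known in bone and teeth, was at 1.37, 1.41 and 1.06 CPM in condition 3, against 20.6, 8.44 and 16.9 CPM in condition 1 (-3.46, SE 0.40, edgeR adjusted p = 0.00236).

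Several enzyme and receptor genes also fell. Ros1, a receptor tyrosine kinase gene, had -1.89 (SE 0.27) and Abcb4, a phospholipid transporter gene, -1.57 (SE 0.22), both with an edgeR adjusted p of 0.00678. Adc, listed by RefSeq as the antizyme inhibitor gene Azin2, had -1.82 (SE 0.30, edgeR adjusted p = 0.0157), and Ass1, the argininosuccinate synthase gene, -1.52 (SE 0.31, edgeR adjusted p = 0.0392). Plk3, a stress-response kinase gene, and Spon2, a secreted matrix protein gene, had -1.30 (SE 0.26) and -1.67 (SE 0.34), with edgeR adjusted p of 0.0352 and 0.0357. Epha2, an ephrin receptor gene, passed with -1.72 (SE 0.37, edgeR adjusted p = 0.0462) on levels of 2.11, 0.992 and 2.76 CPM in condition 3, against 3.23, 2.81 and 18.0 CPM in condition 1. Its high value is from condition 1 of preparation 3, and without that library the log2 fold change was -1.04 and did not pass (adjusted p = 0.148).

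Some genes near the floor were picked out after their values were seen. Hamp, which encodes the iron hormone hepcidin, was at 0, 0 and 0.0333 CPM in condition 3, against 0.408, 0.950 and 0.675 CPM in condition 1. It passed (edgeR adjusted p = 0.029), and no fold is given since condition 3 was under the floor. Cyp1a1, the monooxygenase gene induced by the aryl hydrocarbon receptor, was at 0.156, 0.481 and 0.0998 CPM in condition 3, against 2.20, 1.57 and 1.497 CPM in condition 1 (edgeR adjusted p = 0.0173). The potassium channel genes Kcnn2 and Kcnj6 fell by 1.24 (SE 0.20) and 1.17 (SE 0.23) on the log2 scale, with edgeR adjusted p of 0.015 and 0.0355.

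Endocrine genes did not pass. Of 12 beta, 8 alpha, 4 delta and 3 PP cell markers tested 0 rose and 0 fell, with medians of 0.10, 0.26, 0.44 and -0.49. Ins1 was at 270527, 341317 and 67187 CPM in condition 3, against 56381, 239838 and 141735 CPM in condition 1, a log2 fold change of 0.44 (SE 0.64, edgeR adjusted p = 0.86). The log2 difference of Ins1 within preparations 1, 2 and 3 was 2.26, 0.51 and -1.08, and that of Ins2 was 1.12, 1.09 and -1.59. Both genes thus differed widely between libraries of a preparation, and the direction was not shared. Iapp, the amylin gene, came nearest to the threshold: it was at 8376, 9464 and 6450.1 CPM in condition 3, against 12598, 12753 and 15590.2 CPM in condition 1 (-0.79, SE 0.19, edgeR adjusted p = 0.0734). Ins2 had 0.14 (SE 0.58), Gcg 0.36 (SE 0.23), Sst 0.45 (SE 0.50) and Ppy -0.49 (SE 0.61). These SEs do not exclude changes of the size shown.

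Lists of macrophage, mural, Schwann, acinar, duct and lymphocyte markers also had 0 that rose and 0 that fell, with medians from -1.56 to 0.60. The lowest median is that of 9 lymphocyte markers that sum to at most 1.76 CPM. Macrophage markers summed to 131 to 162 CPM in condition 3 and 80.9 to 158 CPM in condition 1. Duct markers summed to 31.8 to 71.8 CPM in condition 3 and 43.9 to 271 CPM in condition 1, the 271 CPM being in preparation 3.

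The other 24 h and 3 h conditions share no library with this comparison, though they come from the same 3 preparations and the same fit. In condition 6 against condition 5, 769 genes passed (6.11%): 386 were higher (3.07%) and 383 lower (3.05%). Of the 32 genes that rose here 15 also passed higher there (46.9% of the 32 and 3.89% of the 386), and of the 55 that fell 42 passed lower (76.4% of the 55 and 11.0% of the 383). All 32 rises and 54 of the 55 falls had the same sign there, the exception being Kcnj6 (0.15, SE 0.23). Across all 12576 genes the log2 fold changes had a Pearson r of 0.45.

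In condition 4 against condition 2, 1072 genes passed (8.52%): 457 were higher (3.63%) and 615 lower (4.89%), and condition 2 is 3 h GLT by the sheet only. Of the genes above, 19 of the 32 rises and 40 of the 55 falls passed there in the same direction, and r across genes was 0.42. Passed in all 3 comparisons were 46 genes, 13 higher and 33 lower. Among the rises of stromal genes, Col1a1 had 0.56 (SE 0.33) in condition 6 against 5 and 0.49 (SE 0.33) in condition 4 against 2, and Cilp 0.63 (SE 0.51) and 0.56 (SE 0.52), none past the test.

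The difference between these changes was tested in the same fit. Against the change from condition 5 to 6, 0 of 12576 genes differed with edgeR (0%), with a smallest adjusted p of 0.252, 639 genes at an unadjusted p below 0.05 and 35 by DESeq2. For Col1a1 and Cilp this test gave edgeR adjusted p of 0.883 and 0.883, so a smaller rise under compound D is not shown. Their test against the change from condition 2 to 4 gave edgeR adjusted p of 0.423 and 0.423, so a smaller rise there is not shown either. Against the change from condition 2 to 4, 9 genes differed (0.0716%), with 5 positive (0.0398%) and 4 negative differences (0.0318%), none of which passed in condition 3 against condition 1. The cell cycle list had 22 falls in condition 6 against 5 and 11 in condition 4 against 2, and the endothelial list 6 and 13. Of all genes 3.05% and 4.89% fell in these 2 comparisons. Cholesterol synthesis genes had 0 that fell here, of 25 with a median of -0.52, and 11 that fell in condition 6 against 5, with 0 past the test of the difference.

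**Figure D5:**
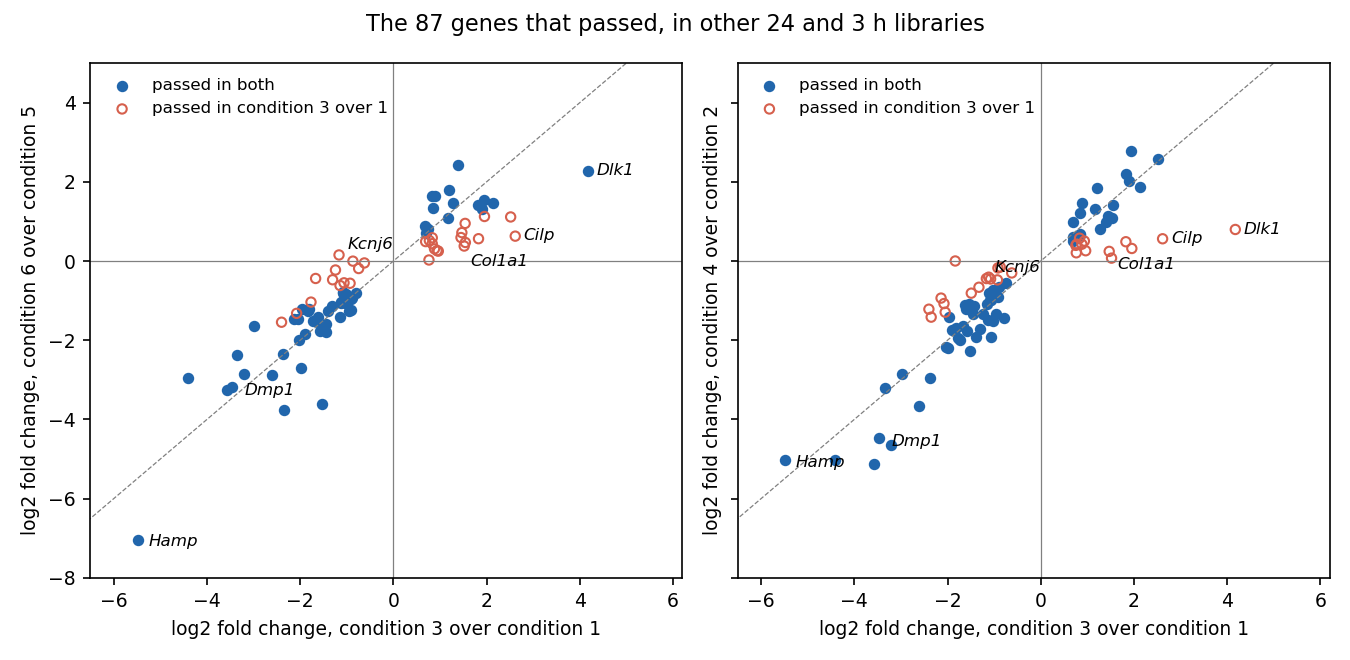
Fitted log2 fold change of condition 6 over condition 5 (left) and of condition 4 over condition 2 (right) on the vertical axes, against condition 3 over condition 1 on the horizontal axes, for the 87 genes that passed in condition 3 against condition 1. Filled points passed in both comparisons, open points in condition 3 against condition 1, and the dashed line marks equal values; most points lie in the quadrants of equal sign, with Dlk1, Col1a1 and Cilp nearer to 0 on the vertical axes.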

How the data were processed

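Per the labels, RNA of about equal numbers of islets per sample was sequenced as paired reads of 100 bp, and per the submitters' processing notes reads were aligned to rat build rn5 with TopHat2 2.0.3 and Bowtie2 2.0.0. The authors deposited raw counts per gene from HTSeq, per the labels; the strand setting and the annotation are not given in the sources used here, so overlapping and antisense genes cannot be told apart. The 5 rows that name no gene stayed out of all tests: in the 6 libraries reads in no feature, at more than 1 place and ambiguous were 14.4% to 18.7%, 5.25% to 23.4% and 0.161% to 2.03%.

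The counts of all 21 libraries were fitted with edgeR 4.0.16 in R 4.3.3 (TMM, filterByExpr, quasi-likelihood test, BH below 0.05) with terms for condition and preparation. The pairing comes from the labels, which say that a pool was divided over the conditions. The deviations of its libraries from their group means correlated by 0.194 (preparation 1), 0.373 (preparation 2) and 0.425 (preparation 3) on average. Between the condition 3 and condition 1 libraries alone these correlations were -0.119, 0.224 and 0.315, so preparation 1 does not show the pairing there. SE is the size of the log2 fold change over the root of the F statistic. Alternatives used DESeq2 1.42.0, limma 3.58.1 (voom), other scalings and filters, fits without the preparation term or on the groups compared alone, and left-out libraries. The fit was tested on simulated data, where edgeR recovered 2 of 50 genes set to 1.5-fold, 22 of 50 at 2-fold and 50 of 50 at 4-fold. It made 3 false calls there and DESeq2 made 31. A gene or list without a pass may thus hold changes of 2-fold or less. Within conditions 3 and 1 no library was a second deposit of another of its group: chi-square per degree of freedom between replicates was 186 to 828. Over all groups it ran from 26.6 to 928. Libraries of different groups were not compared in this way.

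Named were the 15 largest rises and falls among genes that passed at a mean of at least 5 CPM in a group, up to 4 members a list that passed, and set hormone genes; other names were chosen after their values were seen. The members and the lists were chosen with earlier results of these data known. Counting floors cover counting error only.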

Additional observations from a re-analysis of the deposited data

Results flagged for a closer look

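The change of 9 genes from condition 1 to 3 differed from that from condition 2 to 4 in the test of the difference (edgeR, BH over 12576 genes), and none of the 9 passed in condition 3 against condition 1. The difference is given as the log2 fold change of condition 3 over 1 minus that of condition 4 over 2. Abcb1a, a drug efflux pump gene, had -4.41 (SE 0.58, adjusted p = 0.00576), from -0.45 in condition 3 against 1 and 3.97 in condition 4 against 2. Il23a, a cytokine subunit gene, had -3.97 (SE 0.36), from -0.85 and 3.13. Anxa3, an annexin gene, had -2.84 (SE 0.41), and Bcat1, a branched-chain aminotransferase gene, -1.97 (SE 0.27).

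The other 5 differences were positive, with lower values in condition 4 against 2. Ypel4 had 2.97 (SE 0.36), Gprc5b 1.61 (SE 0.17), Hps4 1.39 (SE 0.23), P2rx3 1.38 (SE 0.24) and Dos, listed by RefSeq as Cbarp, 1.19 (SE 0.19). P2rx3, an ATP-gated channel gene, had 0.68 in condition 3 against 1 and -0.70 in condition 4 against 2. The names of conditions 3 and 2 are those in conflict between sheet and records. Condition 2 held 55.8 to 62.2 CPM of Plvap and 5.22 to 7.75 CPM of A1bg, near the 3 h conditions 1, 5 and 7. It held 94.1 to 116 CPM of Ypel4, where the single library of condition 7 held 88.4 CPM.

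Outside the gene counts, condition 3 of preparation 2 had 23.4% of reads at more than 1 place in the genome, above every other library. Its part in the results was not tested beyond leaving the library out.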

How the results depend on the processing

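All 87 genes kept their direction in 18 alternatives, and 0 passed in every one. For condition 3 against 1, library size alone gave 32 genes, DESeq2 389, the fit without the replicate block 17, the 6 libraries alone 0 and a term for the share of ambiguous reads 9; leaving out replicates gave 1 to 148, the lowest without preparation 1 and the highest without condition 8 of preparation 1. The last 2 kinds of alternative, the ambiguous term and condition 8, were chosen after seeing the data. For condition 6 against 5 the same settings gave 240 (library size), 1320 (DESeq2), 382 (no block) and 1885 (groups alone), and 9 to 1126 with replicates left out. For condition 4 against 2 they gave 633 (library size, 454 of them higher), 604 (no block) and 3263 (groups alone), and 21 to 1380 with replicates left out. The difference from condition 6 against 5 had 35 genes with DESeq2 and 0 to 2 with replicates left out. That from condition 4 against 2 had 5 with library size, 109 with DESeq2, 3 without the block, 5 with the groups alone, 5 with the ambiguous term and 0 to 15 with replicates left out. The cause of these moves was not tested. Depth limits genes under about 0.1 CPM, where 3 counts lie.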

Other observations

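Cholesterol synthesis genes, which the factor SREBP2 controls, had 23 of 25 values below 0 and 0 that passed. The cyclase gene Lss had -0.88 (SE 0.22, edgeR adjusted p = 0.079). Of 40 immediate early genes, 34 had values below 0, with a median of -0.62 and 0 that passed; the nuclear receptor gene Nr4a3 had -2.29 (SE 0.58, edgeR adjusted p = 0.087). Without condition 1 of preparation 3 that median was -0.25.

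Hypoxia and glycolysis genes had a median of 0.46 over 26 genes, with 0 that passed. Within preparations 1, 2 and 3 the median of their log2 differences was 0.93, -0.16 and 0.54. Without condition 3 of preparation 2, where Tpi1 was at 0 CPM, the fitted median was 0.61 with 0 that passed. Over the 18 alternatives 0 to 10 of the 26 genes rose, so the count depends on the libraries and settings used. Adm, which encodes the vasodilator adrenomedullin, had 1.73 (SE 0.54, edgeR adjusted p = 0.171), and Apln, which encodes the endothelial ligand apelin, 1.91 (SE 0.44, edgeR adjusted p = 0.063). Its receptor gene Aplnr had -1.52 (SE 0.40, edgeR adjusted p = 0.097). Antioxidant genes of the factor NRF2 had a median of 0.01 over 20 genes with 0 that passed. Within preparations 1, 2 and 3 the median of their log2 differences was 0.23, -0.17 and 0.31. Without condition 3 of preparation 2 the fitted median was 0.23, with 0 that passed. In condition 6 against 5, 11 of the 20 rose, against 3.07% of all genes, and none passed the test of the difference.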
